A study of Rattus norvegicus with 6 samples.

Results

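Of 10 listed genes of the NF-kappaB pathway and its chemokine output, 9 were followed in Rat-1, a rat fibroblast cell line, out of 17143 genes measured. The genes were taken by symbol: the chemokines Ccl2, Ccl7, Cxcl1 and Cxcl10, the transcription factor subunits Rela and Nfkb1, the inhibitor Nfkbia, the cytokine Il6 and the enzyme Ptgs2. The tenth, Tnfaip3, which encodes the feedback protein A20, was not analysed here. RNA was taken 4 h after 25000 cells per well had been seeded on an extracellular matrix (ECM) in one of 3 states, with 2 libraries each. The matrix had been remodelled by matrix metalloproteinase 1 (MMP1), had been remodelled by matrix metalloproteinase 13 (MMP13), or was left native as the control. Both enzymes are secreted collagenases. All groups were the same line, maintained in medium with fetal bovine serum. The labels do not say whether serum was present on the matrix, and they give RNA from the cells that adhered to it. The labels call the samples duplicates and name no separate cultures, so every p-value measures only how far these libraries scatter, and that scatter may be technical.

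NF-kappaB is a family of dimeric transcription factors held in the cytoplasm by IkappaB proteins. Cytokine and pattern-recognition receptors activate the IkappaB kinases, IkappaB is degraded, and the freed dimers enter the nucleus and switch on chemokines, cytokines and their own inhibitors, Nfkbia among them. In fibroblasts this programme calls leukocytes to injured tissue: Ccl2 and Ccl7 attract monocytes, Cxcl1 attracts neutrophils and Cxcl10 attracts activated T cells.

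The factor reads short runs of DNA known as kappaB sites, and promoter sequence was available in RefSeq (build GRCr8) for 8 of the 9 genes, all but Ccl2. The NF-kappaB consensus was searched on both strands from 250 bases before to 50 bases after each start. It was found in 6 of these 8 windows, against 1068 of 11492 windows of measured genes (9.29%) and 2515 of all 33469 promoter windows (7.51%). The genes were listed as known members of the pathway, so this share describes them and tests nothing. The shorter pattern GGNNNTTCC, which overlaps each consensus match, was in 6 of the 8 windows, in 20.1% of windows of measured genes and in 18.3% of all windows. The 5 stretches below are shown because they hold the matches that lie upstream of a start. Each is written 5′ to 3′ on the gene's strand, with the bases matching the consensus on either strand in capitals and 15 bases on each side.
Cxcl1, minus strand, chr14:17479380-17479420: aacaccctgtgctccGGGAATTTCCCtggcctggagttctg
Cxcl10, plus strand, chr14:15988864-15988963: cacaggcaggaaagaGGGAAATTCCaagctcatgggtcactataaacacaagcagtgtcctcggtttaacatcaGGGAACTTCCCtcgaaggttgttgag
Ccl7, plus strand, chr10:67514021-67514060: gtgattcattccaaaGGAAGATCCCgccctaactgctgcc
Nfkbia, minus strand, chr6:78597079-78597118: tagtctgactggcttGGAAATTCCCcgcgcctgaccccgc
Il6, minus strand, chr4:5894619-5894658: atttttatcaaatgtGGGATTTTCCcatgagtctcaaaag
The match of Nfkb1 began at base 4, with the start base itself counted as the first. No match was found in the windows of Rela and Ptgs2, which says only that these letters are not in those windows. Binding was not measured.

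Levels are deposited gene counts divided by a size factor per library, called units here. Whole reads were recovered from them and totalled between 161817 and 362122 per library. A read was worth between 0.735 and 1.68 units. A gene with 0 reads could still hold up to 3, that is 5.04 units in the shallowest library and 2.21 in the deepest, and a gene was counted as on in a library where it had more than 3 reads. The fibroblast markers Col1a1, Col1a2, Col3a1, Vim, Fn1, Pdgfrb, Thy1 and S100a4 were all on in every library. Of 9 leukocyte markers, Csf1r alone was on in every library. The leukocyte list took 0.0114% to 0.0116% of reads in the MMP1 libraries, 0.00801% to 0.0117% in the MMP13 libraries and 0.00432% to 0.00774% in the native libraries. Of its defining genes, Ptprc had 4 and 1 reads with MMP1, 0 and 0 with MMP13 and 0 and 3 on native matrix. The endothelial list took at most 0.00364% and the epithelial list at most 0.00608% of reads in any library. Of 5 endothelial markers 0 were on in every library. Of 5 epithelial markers, Krt8 alone was on in every library, with 4 to 22 reads, and Epcam had 0 reads.

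In all 6 libraries 6 of the 9 genes were on, namely Ccl2, Cxcl1, Cxcl10, Nfkbia, Nfkb1 and Rela. Of all genes, 4341 (25.3%) met the same condition. Ccl7 had at least 1 read in every library but was on in 3. Il6 and Ptgs2 were on in no library, so no fold is given for these 2 genes at this depth. In bulk RNA, a smaller share of cells making a transcript and less of it per cell cannot be told apart.

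**Figure D1:**
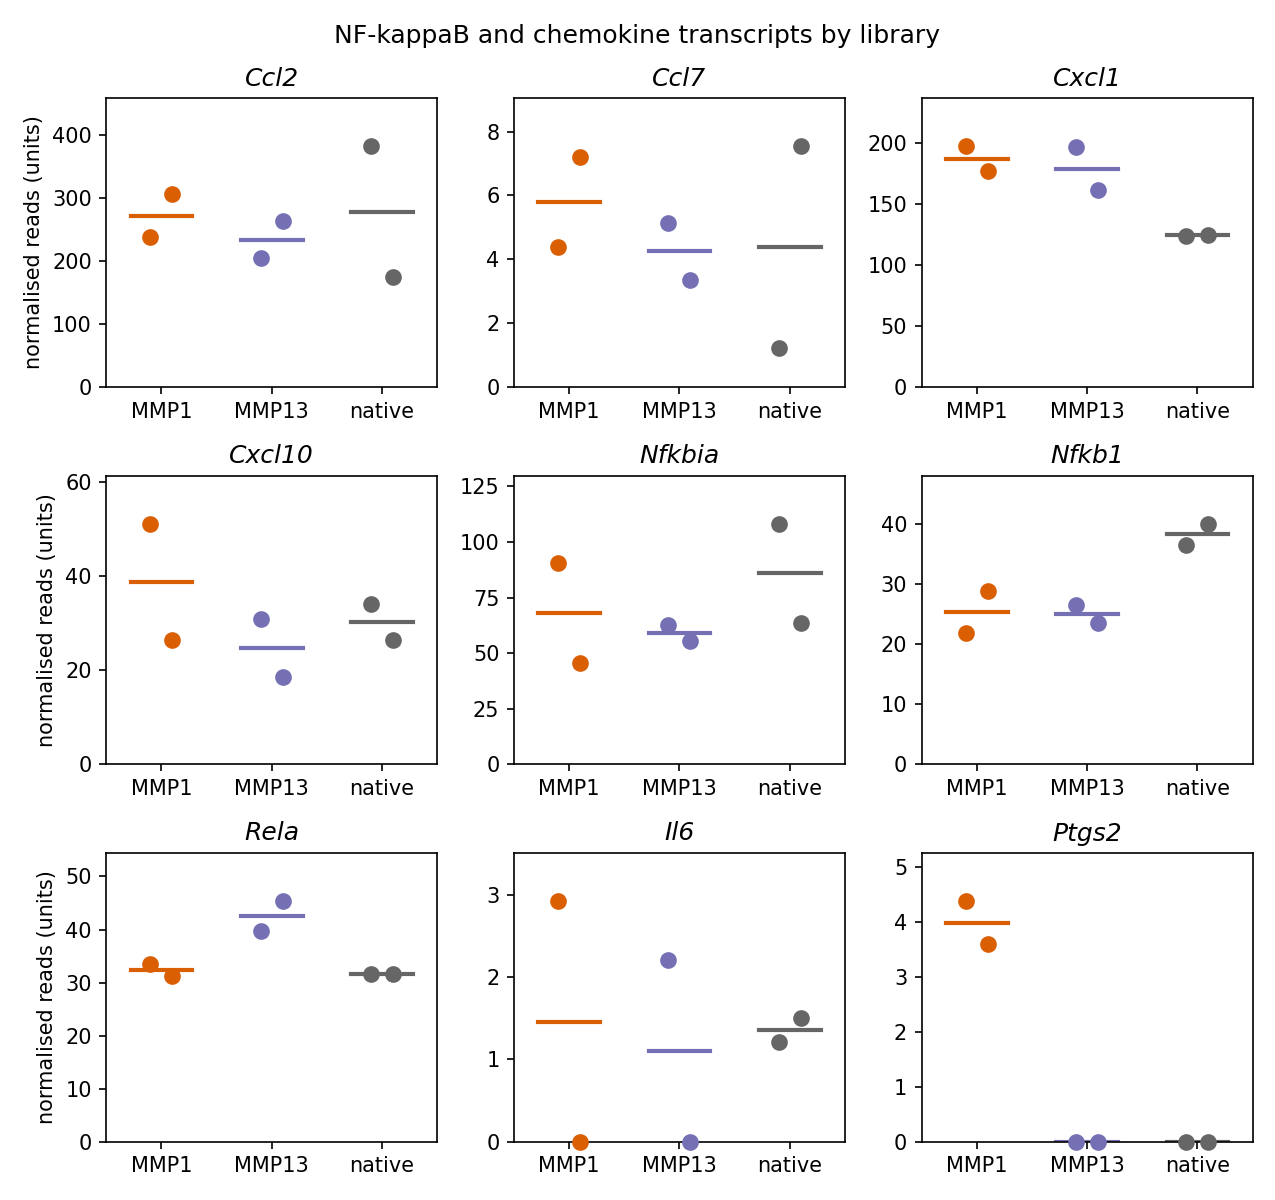
Normalised reads (units, vertical axis from 0) of the 9 genes in each library, by matrix; points are libraries and bars the means of 2. Cxcl1 lies between 161 and 197 units in the 4 libraries from remodelled matrices, all above the native libraries, and Nfkb1 lies below its native libraries in all 4. Against native matrix the groups did not overlap for 38.4% (MMP1) and 37.5% (MMP13) of all tested genes.

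On remodelled matrix no gene of the group passed the test in either direction. With limma at an adjusted p under 0.05, 0 of 7 tested genes were called on MMP1-treated against native matrix, where 0.151% of all tested genes were called. On MMP13-treated against native matrix it was again 0 of 7, against 0.412% of all tested genes, and between MMP13-treated and MMP1-treated matrix 0 of 7 against 0.0412%. The edgeR test on recovered reads called 0 of 6 members in each comparison, against 0.219%, 0.700% and 0.0437% of all genes in that order. DESeq2 called 0 members as well, of 9 given an adjusted p in the first comparison, 3 in the second and 9 in the third. Of the genes it gave an adjusted p, it called 0.00679% of 14735 in the first, 4.07% of 737 in the second and 0.00679% of 14735 in the third, so the second share has a much smaller base. At an unadjusted p under 0.05, 1 of 7 members differed on MMP1-treated matrix (8.24% of all genes), 1 of 7 on MMP13-treated matrix (8.05%), and 0 of 7 between the remodelled matrices (5.22%). That gene was Cxcl1 in both comparisons with native matrix, which share their native libraries. Without the intensity trend its unadjusted p was 0.14 with MMP1 and 0.18 with MMP13, so neither stayed under 0.05. The 7 tested genes, those with at least 5 units in at least 2 libraries, were the 6 that were on throughout and Ccl7.

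Cxcl1, the neutrophil attractant, had 197 and 176 units in the MMP1 libraries and, in the MMP13 libraries, 196 and 161, against 124 and 125 in the native libraries. Both groups from remodelled matrix therefore lay wholly above the native group. In these comparisons the groups did not overlap for 38.4% (MMP1) and 37.5% (MMP13) of all tested genes. Cxcl1 averaged 187 ± 14.6 units on MMP1-treated matrix, 179 ± 24.9 on MMP13-treated matrix and 124 ± 0.372 on native matrix (SD, n = 2 each). The log2 fold was 0.58 on MMP1-treated matrix (SE 0.21, 95% interval 0.18 to 0.98), on the log2(units + 1) scale. By limma its unadjusted p was 0.0046 and its adjusted p 0.27. On MMP13-treated matrix the log2 fold was 0.51 (SE 0.21, interval 0.11 to 0.92), with an unadjusted p of 0.012 and an adjusted p of 0.41. Neither difference passed once all genes were counted. The adjusted p was 0.21 and 0.25 by edgeR and 1.00 and 0.18 by DESeq2 on MMP1-treated and MMP13-treated matrix. With any library left out the log2 fold stayed between 0.50 and 0.66 on MMP1-treated matrix and between 0.37 and 0.66 on MMP13-treated matrix. The leukocyte marker list was also higher in every library from remodelled matrix than in either native library, and its part in the Cxcl1 values was not tested.

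The native values of Cxcl1 rest on 102 and 165 reads, for which exact Poisson 95% intervals ran from 101 to 151 and from 106 to 145 units. In the MMP1 libraries the intervals were 165 to 233 and 149 to 207 units, and in the MMP13 libraries 174 to 221 and 131 to 197 units. The interval of MMP13 replicate 2, the shallowest library, overlapped both native intervals, and that of MMP1 replicate 2 overlapped the native replicate 1 interval. Such intervals cover counting error only, and without stated collapsing of molecular identifiers reads need not be separate molecules.

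**Figure D2:**
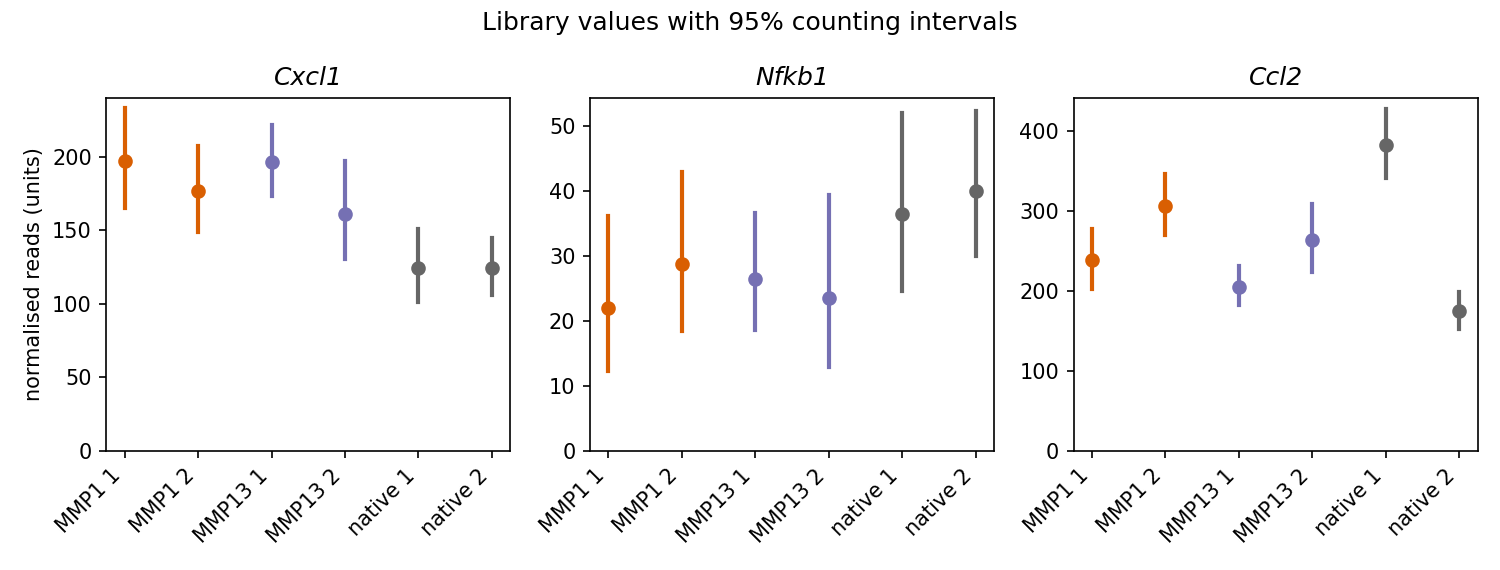
Units (vertical axis from 0) of Cxcl1, Nfkb1 and Ccl2 in each library with exact Poisson 95% intervals for counting error. The native libraries of Ccl2, at 383 and 174 units, lie further apart than their intervals allow, while those of Cxcl1 and Nfkb1 overlap.

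Ccl2, the monocyte attractant, had 238 and 306 units in the MMP1 libraries, 205 and 264 in the MMP13 libraries and 383 and 174 in the native libraries. The native libraries were the highest and the lowest of the 6, so every other library lay between them. The native counting intervals, 342 to 428 and 153 to 198 units, did not overlap. The log2 fold was 0.06 on MMP1-treated matrix (95% interval -0.28 to 0.40, limma adjusted p = 0.97) and -0.15 on MMP13-treated matrix (-0.49 to 0.19, adjusted p = 0.90). These intervals took their error from genes of like level: that error was 0.17 on the log2 scale, and the spread of the gene's own libraries was 0.51 (pooled SD within groups). The intervals for Ccl2 are therefore too narrow. The own spread was also the larger for Nfkbia and for Cxcl10 (0.50 against 0.41). It was the smaller for Cxcl1 (0.13 against 0.21), Nfkb1 (0.18 against 0.41), Rela (0.087 against 0.38) and Ccl7 (0.86 against 0.99). On MMP1-treated matrix the log2 fold of Ccl2 was 0.63 without native replicate 1, -0.50 without native replicate 2 and -0.12 without MMP1 replicate 2. On MMP13-treated matrix it was 0.41 without native replicate 1, -0.72 without native replicate 2 and 0.03 without MMP13 replicate 1. The direction of Ccl2 thus changed with the library left out.

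Ccl7, a close relative of Ccl2 that also attracts monocytes, was near the limit of detection. It had 3 and 6 reads with MMP1, 7 and 2 with MMP13 and 1 and 10 on native matrix. The groups overlapped entirely, and the native libraries again held the lowest and the highest value, at 1.22 and 7.55 units. The 95% interval of its log2 fold ran from -1.33 to 2.55 on MMP1-treated and from -1.69 to 2.19 on MMP13-treated matrix, and both intervals include a 2-fold change in either direction. How reads shared between related chemokine genes were assigned is not given in the sources used here, and the values of Ccl2, Ccl7 and Cxcl1 carry that uncertainty.

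Cxcl10, which interferons induce together with NF-kappaB, had 51.1 and 26.4 units in the MMP1 libraries, 30.9 and 18.5 in the MMP13 libraries and 34.0 and 26.4 in the native libraries. The groups overlapped in each comparison. The log2 fold was 0.29 on MMP1-treated matrix (95% interval -0.51 to 1.08, limma adjusted p = 0.90) and -0.31 on MMP13-treated matrix (-1.11 to 0.48, adjusted p = 0.91). The first turned to -0.18 without MMP1 replicate 1 and the second to 0.04 without MMP13 replicate 2. Cxcl10 had the most negative fold of the group between the remodelled matrices, -0.60 for MMP13-treated over MMP1-treated matrix (-1.40 to 0.20, adjusted p = 1.00).

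Among the factor's own subunits, Nfkb1, whose product p105 is processed to p50, was lower in every library from remodelled matrix. It had 21.9 and 28.8 units in the MMP1 libraries and, in the MMP13 libraries, 26.5 and 23.5, against 36.5 and 40.0 in the native libraries. It averaged 25.36 ± 4.88 units on MMP1-treated, 24.99 ± 2.10 on MMP13-treated and 38.2 ± 2.49 on native matrix (SD, n = 2 each). The log2 fold was -0.58 on MMP1-treated matrix (95% interval -1.39 to 0.22, limma adjusted p = 0.75) and -0.59 on MMP13-treated matrix (-1.40 to 0.21, adjusted p = 0.77). Neither passed, at an unadjusted p of 0.16 and 0.15. The gene rested on 14 to 53 reads per library, and the counting intervals of all 6 libraries overlapped. Leaving out 1 library moved the fold between -0.77 and -0.39 on MMP1-treated matrix and between -0.68 and -0.51 on MMP13-treated matrix, with no change of direction.

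Rela, the p65 subunit that carries the activation domain, had 33.6 and 31.2 units in the MMP1 libraries, 39.7 and 45.3 in the MMP13 libraries and 31.6 and 31.7 in the native libraries. The MMP13 libraries lay above all 4 others, while MMP1 and native libraries overlapped. The log2 fold was 0.41 on MMP13-treated against native matrix (95% interval -0.33 to 1.15, limma adjusted p = 0.85) and 0.38 for MMP13-treated over MMP1-treated matrix (-0.36 to 1.12, adjusted p = 1.00). On MMP1-treated against native matrix it was 0.03 (-0.71 to 0.77, adjusted p = 0.99), and its sign turned with TMM scaling, to -0.03. The counting intervals of the 6 libraries overlapped here too, with 23 to 54 reads each.

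Nfkbia, the IkappaB-alpha inhibitor and a classical early target of the factor, had 90.5 and 45.6 units in the MMP1 libraries, 62.5 and 55.4 in the MMP13 libraries and 108 and 63.4 in the native libraries. The MMP13 libraries lay just under the native ones. The MMP1 libraries overlapped the native ones, with native replicate 1 above both. The log2 fold was -0.36 on MMP1-treated matrix (95% interval -0.93 to 0.20, limma adjusted p = 0.77) and -0.49 on MMP13-treated matrix (-1.05 to 0.08, adjusted p = 0.70). On MMP1-treated matrix it was 0.13 without MMP1 replicate 2 and 0.02 without native replicate 1. Like Ccl2, this gene scattered more between replicates (0.51) than the error taken from genes of like level (0.29). Its counting intervals were apart between the MMP1 replicates and between the native replicates. Of the 18 replicate pairs of the 6 genes that were on, these and the native pair of Ccl2 were the 3 that differed beyond counting.

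**Figure D3:**
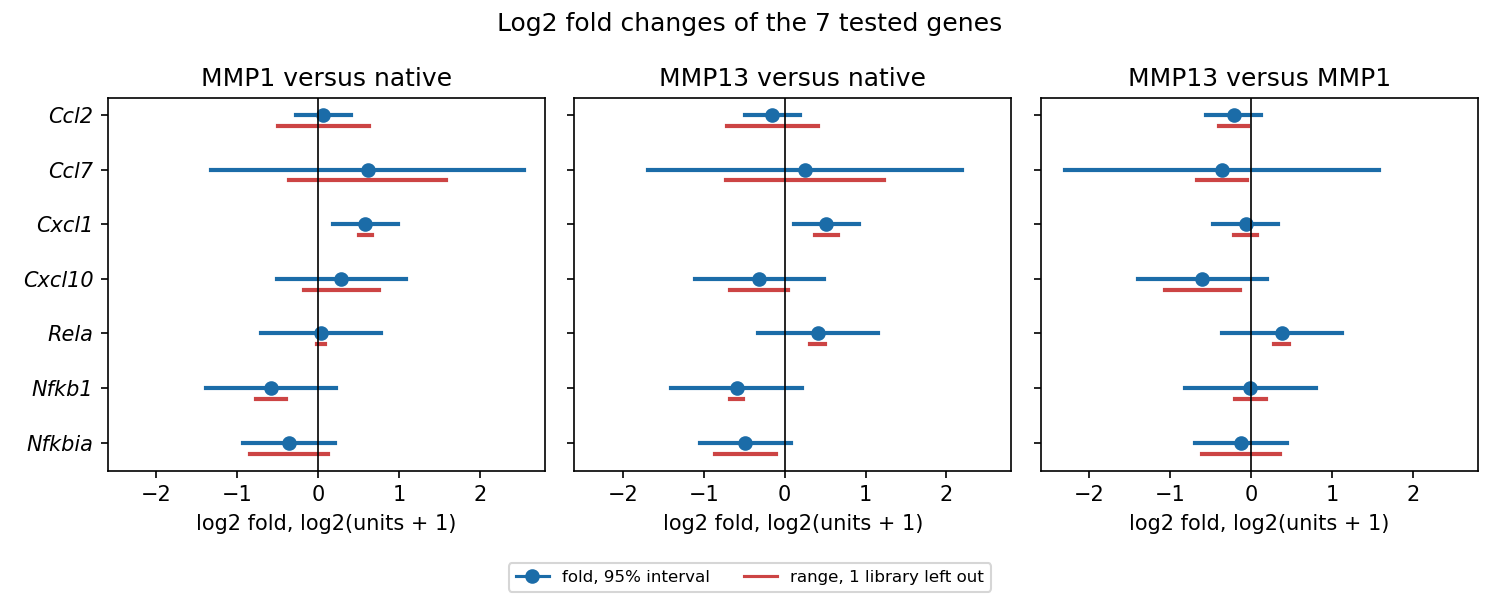
Log2 fold changes of the 7 tested genes on the log2(units + 1) scale in 3 comparisons; points and blue lines give the fold with its 95% interval, red lines the range with 1 library left out. In both comparisons with native matrix Cxcl1 is the only gene whose interval leaves out 0, and the red range of Ccl2 is wider than its interval. Between the remodelled matrices no interval leaves out 0, and the red range of Ccl2 is narrower than its interval.

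Il6, a cytokine of the acute phase response, had 2 and 0 reads with MMP1, 3 and 0 with MMP13 and 1 and 2 on native matrix. All lie at or below the 3 reads that a count of 0 allows. Ptgs2, the inducible cyclooxygenase, had 3 reads in each MMP1 library and 0 reads in each MMP13 and each native library. Its level in the MMP1 libraries, 4.38 and 3.60 units, was that of the floor, and the other 4 libraries allow up to 2.21 to 5.04 units, so no fold is given. With no filter on low values, limma gave Ptgs2 an adjusted p of 0.80 on MMP1-treated against native matrix and 0.91 for MMP13-treated over MMP1-treated matrix. For Il6 it was 1.00 on MMP1-treated and 0.98 on MMP13-treated against native matrix.

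The folds of the members had both signs. On MMP1-treated matrix 5 of the 7 tested genes had a positive log2 fold, with a median of 0.06, beside a median of 0.02 over 7284 tested genes. On MMP13-treated matrix 3 of 7 were positive, with a median of -0.15, beside 0.01 over all genes. Between MMP13-treated and MMP1-treated matrix 1 of 7 was positive, Rela, with a median of -0.13, beside -0.0027 over all genes. The libraries of the 2 groups did not overlap for 2 of 7 members on MMP1-treated against native matrix (Cxcl1 and Nfkb1), where this held for 38.4% of all tested genes. They did not overlap for 4 of 7 on MMP13-treated against native matrix (Cxcl1, Nfkb1, Nfkbia and Rela), against 37.5% of all genes. For MMP13-treated against MMP1-treated matrix it was 1 of 7 (Rela), against 31.4%. The genes with a kappaB match upstream had folds of both signs on MMP13-treated matrix: the log2 fold was 0.51 for Cxcl1, 0.25 for Ccl7, -0.31 for Cxcl10 and -0.49 for Nfkbia, of which none passed.

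The order of the matrices by mean level differed between genes. It ran MMP1, MMP13, native from high to low for Cxcl1, and native, MMP1, MMP13 for Ccl2 and Nfkbia. For Ccl2 the mean on MMP1-treated matrix, 272 units, was under the native mean, 279, while the log2 fold of 0.06 had the other sign. For Nfkb1 the order was native first, with MMP1-treated and MMP13-treated matrix at 25.36 and 24.99 units. For Rela it was MMP13, MMP1, native, and for Cxcl10 MMP1, native, MMP13. No 2 matrices in any of these orders passed the test of their difference.

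The wider pathway was described by 15 lists holding 163 genes, of which 150 had a row, 44 were on in every library and 72 were tested. On MMP1-treated against native matrix 1 of the 72 was called higher and 0 lower, beside 0.151% of all tested genes called. On MMP13-treated against native matrix 1 was called higher and 1 lower, beside 0.412%. The lists were written with earlier results of these data known. Between the remodelled matrices 0 were called in either direction by limma, beside 0.0412%, and by edgeR and DESeq2 none of those named here was called. An unadjusted p under 0.05 was found for 7 of the 72 with MMP1, for 8 with MMP13 and for 3 between the remodelled matrices, beside 8.24%, 8.05% and 5.22% of all tested genes, so these counts were near the background.

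Upstream, the ligands that start the pathway were scarcely detected. All 6 listed ligands were on in no library, among them Tnf, Il1a and Il1b, the last with no read. Of 12 receptors, 4 were on in every library: the TNF receptors Tnfrsf1a and Tnfrsf1b, the lymphotoxin receptor Ltbr and the lipopolysaccharide co-receptor Cd14. Tnfrsf1a had 59.9 and 76.8 units in the MMP1 libraries, 57.4 and 73.9 in the MMP13 libraries and 43.8 and 54.3 in the native libraries. All 4 libraries from remodelled matrix were above both native ones, but the log2 folds of 0.47 and 0.41 did not pass (limma adjusted p = 0.73 and 0.79). In these 2 comparisons the groups did not overlap for 38.4% and 37.5% of all tested genes. On MMP1-treated matrix the log2 fold of Ltbr was 0.57 (adjusted p = 0.76), and on MMP13-treated matrix that of Tlr4, the lipopolysaccharide receptor, was -2.17 (adjusted p = 0.65). Tlr4 stood at 1.47 and 0 units in the MMP13 libraries and 3.65 and 9.81 units in the native libraries, with both MMP13 values below the floor of their libraries. Of the 12, 5 were tested and 0 called.

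Of the relay between receptor and factor, 0 of 7 tested kinase genes, 0 of 10 adaptor genes and 0 of 4 feedback genes were called in any comparison. The kinase gene Tbk1 had 17.5 and 26.4 units in the MMP1 libraries, against 3.65 and 18.9 in the native libraries, the first of these at the floor. On MMP1-treated matrix its log2 fold was 1.23 (limma adjusted p = 0.49). That fold was 0.18 without native replicate 1 and 2.28 without native replicate 2. Chuk, which encodes IkappaB kinase alpha, had -0.72 on MMP1-treated matrix and Map3k14, the kinase of the non-canonical branch, 0.82 on MMP13-treated matrix (adjusted p = 0.77 and 0.90). With 1 library left out the fold of Chuk ran from -1.36 without MMP1 replicate 1 to -0.08 without MMP1 replicate 2, and that of Map3k14 from 0.47 without native replicate 1 to 1.16 without native replicate 2. Myd88, the adaptor of Toll-like and interleukin-1 receptors, had 11.8 and 5.04 units in the MMP13 libraries, the second at the floor of its library. In the native libraries it had 15.8 and 18.9, a log2 fold of -1.06 (adjusted p = 0.63). The ubiquitin ligase gene Birc3, itself a target of the factor, had -1.74 on MMP13-treated matrix (adjusted p = 0.70) and Irak2 2.19 on MMP1-treated matrix (adjusted p = 0.73), both on few reads. The fold of Birc3 was -0.63 without MMP13 replicate 2 and -2.85 without MMP13 replicate 1, that of Myd88 -0.52 and -1.60 without the same libraries, and that of Irak2 ran from 1.34 to 3.05 with 1 native library left out. Of the feedback genes, Tax1bp1 had -0.45 on MMP13-treated matrix (adjusted p = 0.77), and Tnip1 0.39 and Tnip2 -0.48 on MMP1-treated matrix (adjusted p = 0.90 and 0.92).

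The subunit gene Nfkb2, a paralog of Nfkb1, had 70.1 and 60.0 units in the MMP1 libraries, 72.1 and 55.4 in the MMP13 libraries and 58.3 and 69.4 in the native libraries. Its log2 fold was 0.03 on MMP1-treated matrix (limma adjusted p = 0.99). Of 6 IkappaB family genes, 4 were on in every library: Nfkbia, Nfkbib, Nfkbie and Nfkbiz. Nfkbie had 19.0 and 24.0 units in the MMP1 libraries, against 8.51 and 15.1 in the native libraries, a log2 fold of 0.85 (adjusted p = 0.71), which was 0.47 without native replicate 1. On MMP1-treated matrix the fold was 0.51 for Nfkbiz and 0.30 for Nfkbib (adjusted p = 0.89 and 0.92). Nfkbia had a negative fold where these 3 had positive ones, but leaving out 1 library turned the sign of Nfkbia (to 0.13), Nfkbiz (-0.35) and Nfkbib (-0.07). None passed.

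Most of the chemokine family was not detected, or near the floor, at this depth. Of 16 CC chemokine genes 1 was on in every library, Ccl2, and 10 were on in none. Of 14 CXC and other chemokine genes 4 were on in every library, Cxcl1, Cxcl10, Cxcl16 and Cx3cl1, and 8 were on in none. Cxcl16, a membrane-bound chemokine, had 105 and 76.8 units in the MMP1 libraries, 79.4 and 101 in the MMP13 libraries and 72.9 and 65.7 in the native libraries. Cx3cl1, fractalkine, had 17.5 and 22.8 units in the MMP1 libraries, 16.2 and 18.5 in the MMP13 libraries and 12.2 and 13.6 in the native libraries. Both were higher in all 4 libraries from remodelled matrix than in either native one, as Cxcl1 was, in comparisons that share their native libraries. The groups did not overlap for 38.4% (MMP1) and 37.5% (MMP13) of all tested genes, and the share for both comparisons at once was not counted. Neither gene passed: the log2 fold of Cxcl16 was 0.37 on each remodelled matrix (limma adjusted p = 0.75 and 0.78), and that of Cx3cl1 0.60 and 0.40 (adjusted p = 0.80 and 0.91). Ccl20 and Ccl25 were tested on few reads, with log2 folds of -1.06 on MMP13-treated and -0.55 on MMP1-treated matrix (adjusted p = 0.91 and 0.93), each of which changed sign with 1 library left out. Without native replicate 1 that of Ccl20 was 0.65, and without MMP1 replicate 2 that of Ccl25 was 0.41. Of 11 measured chemokine receptor genes 0 were on in every library.

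Among the cytokines around Il6, Csf1 and Csf3 were on in every library. Csf3, the granulocyte colony-stimulating factor gene, had 13.2 and 30.2 units in the MMP13 libraries and 12.2 and 6.79 in the native libraries, a log2 fold of 1.06 (limma adjusted p = 0.66). It was 0.49 without MMP13 replicate 2 and 1.62 without MMP13 replicate 1. Il11 (log2 fold -0.76) and Il33 (-0.62) on MMP1-treated matrix had 0 units in MMP1 replicate 2 and changed sign without it, to 0.98 and 1.21. Il33 also changed sign without native replicate 1, to 0.51. Transcripts of the machinery that reads Il6 were detected, with Il6r, Il6st, Jak1 and Stat3 on in every library. Stat3, the transcription factor of that pathway, had 78.7 and 55.4 units in the MMP13 libraries and 101 and 86.8 in the native libraries, a log2 fold of -0.50 (adjusted p = 0.65). The shared receptor subunit Il6st had -0.44 on MMP13-treated and Jak1 -0.30 on MMP1-treated matrix (adjusted p = 0.79 and 0.77).

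Of 12 prostaglandin genes, the synthases Ptges2 and Ptges3 were on in every library and 8 genes, Ptgs2 among them, were on in none. Ptges3, also known as the HSP90 co-chaperone p23, had 78.9 and 62.4 units in the MMP1 libraries, against 102 and 125 in the native libraries. Its log2 fold of -0.68 had an unadjusted p of 0.0086 and an adjusted p of 0.35 by limma. Ptges2 had 0.78 on MMP13-treated matrix (adjusted p = 0.82). The constitutive cyclooxygenase Ptgs1 had 0 and 1.20 units in the MMP1 libraries, against 13.4 and 0 in the native libraries, and its log2 fold of -1.35 was 0.57 without native replicate 1.

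The calls among pathway genes were in the list of other NF-kappaB target genes, of which 11 were tested. Ier3, an early stress gene that also belongs to the immediate early genes, had 143 and 107 units in the MMP1 libraries, 126 and 128 in the MMP13 libraries and 54.7 and 60.4 in the native libraries. It was called higher on both remodelled matrices, in comparisons that share their native libraries. The log2 fold was 1.09 with MMP1 (SE 0.25, limma adjusted p = 0.012) and 1.13 with MMP13 (SE 0.25, adjusted p = 0.0055). The first call was lost without MMP1 replicate 1 (adjusted p = 0.39), native replicate 1 (0.62) and native replicate 2 (0.088), by DESeq2 (0.61), with TMM scaling (0.11) and without the intensity trend (0.71). The second was lost without MMP13 replicate 1 (0.074), MMP13 replicate 2 (0.14), native replicate 1 (0.39) and native replicate 2 (0.074) and without the intensity trend (0.76). With 1 library left out the log2 fold of Ier3 lay between 0.88 and 1.30 with MMP1 and between 1.06 and 1.20 with MMP13. The gelatinase gene Mmp9 had 18.4 and 3.36 units in the MMP13 libraries and 54.7 and 20.4 in the native libraries. Its value in MMP13 replicate 2 was below the floor of that library, 5.04 units. On MMP13-treated matrix Mmp9 was called lower, with a log2 fold of -1.91 (SE 0.48, limma adjusted p = 0.030). That call was lost by edgeR (adjusted p = 0.11) and without MMP13 replicate 2 (1.00), native replicate 1 (1.00) or native replicate 2 (0.079), with log2 folds between -2.98 and -0.83 when 1 library was left out. It held under 5 of 16 alternatives. Cebpd, a transcription factor gene of the acute phase response, had 17.5 and 10.8 units in the MMP1 libraries, against 1.22 and 5.28 in the native libraries. The value in native replicate 1 was below the floor of that library, 3.65 units. The log2 fold of Cebpd was 1.99, which did not pass (limma adjusted p = 0.34), and ran from 1.23 to 2.74 with 1 library left out. In this list 4 of 11 genes on MMP1-treated and 6 of 11 on MMP13-treated matrix had an unadjusted p under 0.05, beside 8.24% and 8.05% of all genes. Called genes such as Ier3 and Mmp9 were known when the list was written, so these shares are not independent evidence.

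The interferon branch, which meets NF-kappaB at Cxcl10, had 2 of 15 genes on in every library, Irf3 and Irf7. Ifit2 had 0.735 and 1.68 units in the MMP13 libraries and 14.6 and 9.06 in the native libraries, a log2 fold of -2.54 with an unadjusted p of 0.0077 and a limma adjusted p of 0.35. Both MMP13 values were below the floor of their libraries. For Stat2 the log2 fold with MMP1 was 1.20 (adjusted p = 0.63), which was -0.04 without native replicate 1, and Oasl 1.42 on MMP13-treated matrix (adjusted p = 0.76). None of the 7 tested genes was called.

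Genes most like the members were sought among 4341 genes on in every library, by the Pearson r of log2(units + 1) over the 6 libraries. For Cxcl1 these were Gpd2 (0.999), Ap3s1 (0.992) and Psmd13 (0.972), and for Nfkb1 Plcd1 (0.995), Hyal2 (0.983) and Rbm14 (0.966). For Ccl2 they were Psmd14 (0.975), Fbxl5 (0.965) and Creb3l1 (0.965), and for Nfkbia Dmp1 (0.985), Chsy1 (0.975) and Slc35f5 (0.972). For Rela they were Csnk2a1 (0.976), Msrb1 (0.972) and Txnrd1 (0.970), and for Cxcl10 Spag9 (0.973), Rpl26 (0.955) and Pebp1 (0.952). No member was among the 3 nearest genes of another. Between 3 and 18 genes per member reached 0.95. With 6 points that share libraries and depth, and the nearest taken out of all 4341 genes, such values describe these libraries only.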

How the data were processed

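Per the labels' protocols, 3′ end libraries were made from total RNA of cells lysed on the matrix, with an 8-base random identifier in the second read. The submitters' processing notes name build rn5 and the tools TopHat, DESeq and bcl2fastq. They give no versions, and the sources used here name no gene counter, strand setting or collapsing of identifiers. Each deposited value is a signal, a gene's count scaled by 1 size factor per library, as its values show: 100% of those above 0 were multiples of the smallest within 0.01 reads in each library, which gave the reads back.

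The test was limma 3.58.1 (R 4.3.3, eBayes with intensity trend) on log2(value + 1), 1 coefficient per group, all 6 libraries, no replicate block, on 7284 genes with at least 5 units in at least 2 libraries. Genes were called at a p under 0.05 after Benjamini-Hochberg adjustment over all tested genes. The prior degrees of freedom were infinite, so each gene's error comes from genes of like level. A filter satisfied by 2 libraries can be passed through a single group. Alternatives were edgeR 4.0.16 and DESeq2 1.42.0 on recovered reads, other pseudocounts, filters and scalings, a replicate block and left-out libraries. Members and lists were chosen with earlier results of these data known. Named genes were all members, every called list gene, and up to 3 others of each list with the smallest p against native matrix, except that some items are not reported here; the 3 genes most like each member were taken by Pearson r. Ackr3 was matched through its RefSeq synonym Cxcr7.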

Additional observations from a re-analysis of the deposited data

How the results depend on the processing

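The count of members called was 0 in each of the 3 comparisons under every alternative run, the replicate block (0 called in each) and each left-out library included. The count of members on in every library was 6 with a minimum of over 3 or of 10 reads, 7 with at least 1 read, and 6 with any 1 library left out. Same-numbered libraries did not deviate together (r of their deviations from group means between -0.072 and 0.0059 over genes). Many of these genes rest on few reads, where counting error pulls such an r toward 0, so it cannot tell whether same-numbered libraries were paired. On MMP1-treated against native matrix, the log2 fold of Ccl2 turned to -0.00066 by edgeR and -0.038 by DESeq2, and with TMM scaling that of Rela turned to -0.026 and that of Nfkb2 to -0.032. That of Il11 turned to 0.089 by DESeq2. For Ccl7 on MMP13-treated matrix it turned to -0.074 by DESeq2, and for Nfkb1 between MMP13-treated and MMP1-treated matrix to 0.019 with TMM and 0.0095 with quantile scaling. With 1 library left out, log2 folds on MMP1-treated matrix ran from -0.50 to 0.63 for Ccl2, -0.36 to 1.58 for Ccl7, -0.18 to 0.75 for Cxcl10, -0.85 to 0.13 for Nfkbia, -0.020 to 0.083 for Rela, -0.097 to 0.15 for Nfkb2, -0.35 to 1.36 for Nfkbiz, -0.071 to 0.67 for Nfkbib, -1.61 to 0.65 for Tnip2, -1.51 to 0.41 for Ccl25, -2.51 to 0.98 for Il11, -2.45 to 1.21 for Il33, -3.28 to 0.57 for Ptgs1 and -0.039 to 2.44 for Stat2. On MMP13-treated matrix they ran from -0.72 to 0.41 for Ccl2, -0.72 to 1.22 for Ccl7, -0.67 to 0.041 for Cxcl10 and -2.77 to 0.65 for Ccl20. Between the remodelled matrices they ran from -0.21 to 0.074 for Cxcl1, -0.61 to 0.36 for Nfkbia and -0.20 to 0.18 for Nfkb1. The cause of these turns was not tested. Over its alternatives the adjusted p of Cxcl1 ran from 0.21 to 1.00 on MMP1-treated and from 0.18 to 1.00 on MMP13-treated matrix. That of Ier3 ran from 0.0083 to 0.71 and from 0.0032 to 0.76, and that of Mmp9 on MMP13-treated matrix from 4.5e-04 to 1.00. Depth limits Il6, Ptgs2 and Ccl7, with at most 10 reads in a library.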
